A study of Mus musculus with 2 samples.

Results

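The neurotrophins and their receptors were followed through 6 genes: Bdnf and Ntf3, which encode the ligands BDNF and NT-3; Ntrk2 and Ntrk3, which encode their receptors TrkB and TrkC; Ngfr, which encodes the pan-neurotrophin receptor p75NTR; and Sort1, which encodes sortilin. These 6 of 21911 protein-coding genes were chosen by name, and their chromatin accessibility was counted as scATAC-seq fragments across each gene (mm10 genome) and the 2 kb before it, per 1000000 fragments (CPM), in each library and in each marker-gated class of nuclei. The assay cuts accessible DNA in isolated nuclei with the transposase Tn5, so a fragment is evidence of access to the DNA and not of a transcript or a protein.

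Mature neurotrophins signal as dimers through Trk receptor tyrosine kinases, BDNF mainly through TrkB and NT-3 mainly through TrkC, and support neuronal survival, growth and synaptic plasticity. Their uncleaved precursors bind p75NTR together with sortilin, a pairing known for signalling to cell death, and sortilin also sorts the BDNF precursor inside the cell. In the forebrain BDNF is made mostly by glutamatergic neurons from several alternative promoters that share a coding exon, and TrkB is made both as a kinase receptor in neurons and as a truncated form that is abundant in astrocytes.

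Both libraries came from wild-type male C57BL/6J mice aged 8 to 12 weeks and were made from flash-frozen tissue 48 h after surgery. The stroke library pooled the ipsilateral hemispheres of 4 mice that had 1 h of middle cerebral artery occlusion followed by reperfusion (MCAO/R). The sham library pooled 4 brains of mice in which the filament was inserted without a sustained occlusion, and olfactory bulbs and cerebellum were left out of the tissue. Each condition was therefore 1 library with no replicate, so no test between stroke and sham was possible, and the treatment cannot be told apart from the library or from the tissue taken (1 hemisphere against whole brain). Intervals are exact 95% intervals for counting error only (Poisson for a level, conditional binomial for a ratio), and a ratio of at least 1.5 or at most its inverse, in a gene with at least 50 fragments, is called higher or lower as a mark of size.

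Of the barcodes that the authors' pipeline called as cells, 6817 of 6979 in the sham library and 5054 of 8740 in the stroke library had more than 20% of their fragments in peaks and were kept. Kept nuclei held 73477848 sham and 52794287 stroke fragments, with medians of 10356 and 9898 per nucleus, and the median share of fragments in peaks was 38.8% in sham and 33.2% in stroke. The libraries shared 42 kept barcode sequences. Marker genes placed the nuclei in 9 broad classes, which are named for their markers and written as "-like", and 24.9% of sham and 28.8% of stroke nuclei were in no class. In each broad class at least 7 markers were more than 1.5-fold above the other nuclei, among them 11 of 12 in glutamatergic cortical-like, 10 of 10 in GABAergic-like and 15 of 15 in astrocyte-like nuclei. The same markers had set the classes, so these counts describe the classes and are no independent check of them. The myeloid-like class had 28 sham nuclei and the vascular and leptomeningeal-like class 87, too few fragments for a ratio of stroke to sham.

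The 6 genes span very different lengths of DNA, so levels between genes are compared per kb of window. Sort1, on chr3:108284082-108361511, had 1.48 CPM per kb over all kept nuclei and Ntrk2, on chr13:58806569-59133970, had 1.13, against a median of 0.668 over all protein-coding genes. Ngfr, on chr11:95568818-95587735, had 0.681, Bdnf, on chr2:109674700-109727007, had 0.630, and Ntrk3, on chr7:78175959-78738012, had 0.599. Ntf3, on chr6:126101412-126166910, was the least open of the 6 with 0.4002 CPM per kb. None of the 6 gene windows overlapped another protein-coding gene.

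Bdnf was highest in glutamatergic cortical-like nuclei. It had 50.6 CPM there in sham and 45.6 in stroke, against 14.2 and 16.8 in GABAergic-like, 23.3 and 33.3 in astrocyte-like, and 14.1 in stroke myeloid-like nuclei. The glutamatergic cortical-like level over both libraries, 49.1 CPM (46.9 to 51.3), stood apart from the next class, oligodendrocyte-like at 29.96. It was 2.48-fold (2.30 to 2.67) the level of all other gated nuclei, and the GABAergic-like level was 0.376-fold (0.341 to 0.415). Among GABAergic-like nuclei Bdnf was lowest in the Prox1 Adarb2 lineage at 8.84 CPM, then 11.5 in the Lhx6 lineage, 13.2 in striatal projection-like and 20.7 in the Zic lineage, so each of these subclasses was below the cortical subclasses. Within the cortical class, dentate granule-like nuclei had 53.7 CPM (46.3 to 61.9), upper layer-like nuclei 49.4 (44.4 to 54.9) and deep layer-like nuclei 33.9 (29.4 to 39.0), so the first 2 overlapped. Of the 7 dentate granule markers 4 were past 1.5-fold in that subclass, whose nuclei were mostly in cluster 5 in sham (152 of 179) and in cluster 18 in stroke (60 of 88).

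The regions that carry this contrast lay at and just after the alternative Bdnf starts, and their sequences are given here because they show how differently neighbouring elements of 1 gene were used. Each sequence below is the 200 bases with the most Tn5 cut sites of a 500 bp window, or the 200 bases before an annotated start, on the strand of the gene, from the mm10 genome as held by RefSeq (GRCm38.p6). All were chosen after the class values had been seen, and none holds exonic bases. Capitals mark a motif match: GGGCGG (GC box), TTGGCA (a nuclear factor I site) or CAGATG (an E-box, printed as CATCTG where it is on the other strand). The motifs TGANTCA (AP-1) and TGACGTCA (CRE) were also searched on both strands and had no match in the sequences shown. The first Bdnf sequence is chr2:109678106-109678305, in the most open window of the gene, and the second is chr2:109693363-109693562, before the start of transcript Bdnf-205.
Bdnf window 1: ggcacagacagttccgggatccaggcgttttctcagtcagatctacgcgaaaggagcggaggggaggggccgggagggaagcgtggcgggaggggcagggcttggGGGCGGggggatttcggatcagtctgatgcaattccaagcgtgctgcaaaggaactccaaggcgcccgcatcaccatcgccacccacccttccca
Bdnf start 6: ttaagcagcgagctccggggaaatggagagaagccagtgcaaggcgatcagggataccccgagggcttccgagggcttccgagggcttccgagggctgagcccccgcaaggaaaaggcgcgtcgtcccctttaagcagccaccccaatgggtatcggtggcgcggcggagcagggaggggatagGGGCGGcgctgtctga
Both hold GGGCGG, which is found in 42.2% of the same stretch before 20150 protein-coding starts and in 3.09% of 6176 adjoining 200-base stretches of the 6 gene windows. A match is a description of letters and shows no bound factor.

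Bdnf window 1, chr2:109678001-109678500, held 1605 cut sites over both libraries, 66.9-fold the median 500 bp window of the gene, outside exons and 1219 bp after the nearest start. In glutamatergic cortical-like nuclei it had 25.4 cut sites per 1000000 fragments (cut-site CPM) in sham and 21.1 in stroke. In GABAergic-like nuclei it had 2.69 and 2.83, so the glutamatergic level was 8.81-fold (7.07 to 11.1) higher. Astrocyte-like nuclei had 2.84 and 5.30. The 8 most open Bdnf windows held 44.4% of the cut sites of the gene and its 10 kb flanks, and each of the 8 was more open in glutamatergic cortical-like than in GABAergic-like nuclei, by 1.73-fold to 8.81-fold.

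Bdnf starts did not share this order. Start 4, the start of Bdnf-209, had 6.04 cut-site CPM within 250 bp in sham and 6.93 in stroke glutamatergic cortical-like nuclei, with 1.603 in GABAergic-like and 0.568 in astrocyte-like nuclei over both libraries. The glutamatergic level was 3.94-fold (2.91 to 5.43) that of GABAergic-like nuclei, and the astrocyte-like level was 0.0900-fold (0.0290 to 0.213) the glutamatergic one. At start 6, whose upstream sequence is the second above, glutamatergic cortical-like nuclei had 6.44 in sham and 5.87 in stroke, a similar level, yet astrocyte-like nuclei had 6.82 in sham and 11.7 in stroke, 24 and 62 cut sites. Over both libraries the astrocyte-like level at start 6 was 1.56-fold (1.21 to 2.00) the glutamatergic one, the highest such ratio among the Bdnf starts with at least 50 cut sites. This pooled ratio rested mainly on the stroke library, since the sham levels of 6.82 and 6.44 were close. The stroke level of start 6 in astrocyte-like nuclei was 1.72-fold (1.06 to 2.88) the sham level. The overlapping window 3 of Bdnf had 7.11 in sham and 9.85 in stroke astrocyte-like nuclei from 25 and 52 cut sites, a ratio of 1.39 (0.844 to 2.33) whose interval covers 1, and 16.5% of all windows were past 1.5-fold higher in stroke in this class.

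**Figure D1:**
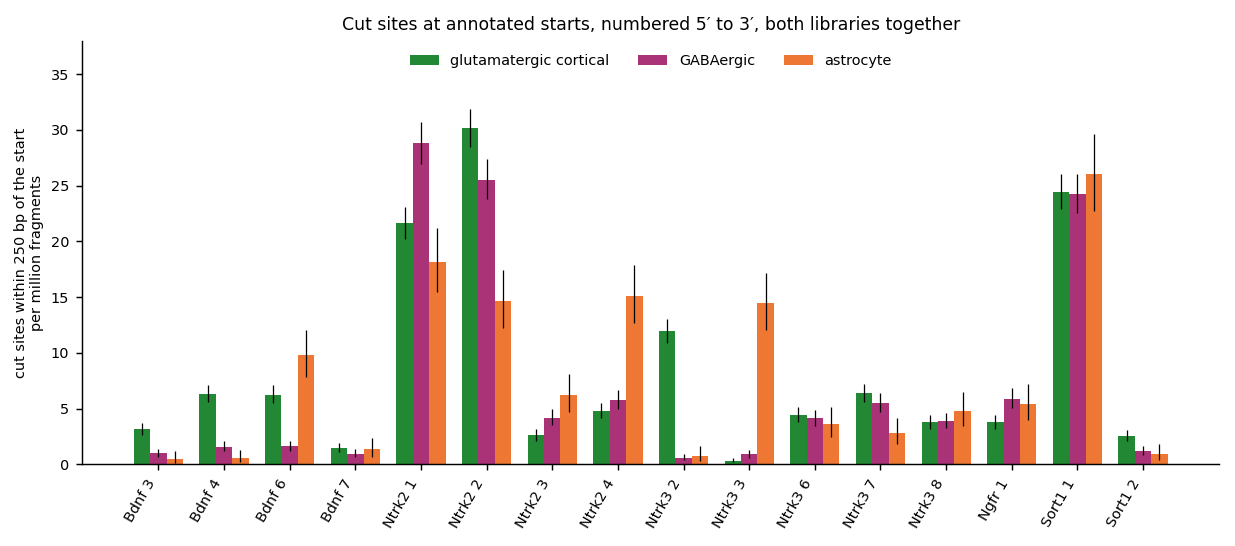
Cut sites per 1000000 fragments within 250 bp of annotated start groups (x axis) in glutamatergic cortical-like, GABAergic-like and astrocyte-like nuclei over both libraries together, as bars from 0 with exact 95% Poisson intervals. Bdnf starts 3 and 4 and Ntrk3 start 2 are open in glutamatergic bars and near 0 in astrocyte-like bars, Ntrk3 start 3 shows the opposite, and Sort1 start 1 is level across classes at 24.2 to 26.0.

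Ntf3, the NT-3 gene, was more open in glutamatergic cortical-like than in GABAergic-like and astrocyte-like nuclei over its whole window with both libraries together. It had 35.1 CPM in sham and 31.1 in stroke glutamatergic cortical-like nuclei, 19.5 and 20.4 in GABAergic-like, and 19.3 and 26.9 in astrocyte-like nuclei. Over both libraries choroid and ependymal-like nuclei had 34.03 CPM (26.1 to 43.6), glutamatergic cortical-like 33.9 (32.1 to 35.7) and vascular and leptomeningeal-like 33.2 (23.8 to 45.1). The last of these pooled 14.8 CPM in sham, from 4 fragments, with 38.4 in stroke, from 37, and the first 38.6 in sham with 23.5 in stroke. Of the subclasses, dentate granule-like nuclei had the highest level, 63.8 in sham and 42.8 in stroke. The level of glutamatergic cortical-like nuclei was 1.57-fold (1.45 to 1.69) that of all other gated nuclei, and the GABAergic-like level was 0.658-fold, but intervals of neighbouring classes overlapped all along the order. Among GABAergic-like nuclei the Zic lineage had 32.6 CPM over both libraries, 1.24-fold (1.05 to 1.45) the other gated nuclei, with 37.8 in sham, 1.41-fold, and 23.6 in stroke, 0.912-fold (0.661 to 1.23). Over the promoter alone, the ratios of the glutamatergic cortical and GABAergic classes were 0.927 and 1.06, so the difference lay outside the promoter. Its annotated starts were barely open, with 0.824 and 0.546 cut-site CPM over all kept nuclei.

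The open elements of Ntf3 differed by class. Window 2, chr6:126162001-126162500, 2709 bp after the start, had 5.23 cut-site CPM in sham and 5.46 in stroke glutamatergic cortical-like nuclei and 0.723 in GABAergic-like nuclei, 7.33-fold (4.76 to 11.8) lower in the latter. Window 4 of Ntf3, chr6:126156001-126156500, had 157 cut sites in glutamatergic cortical-like and 4 in GABAergic-like nuclei, 30.9-fold (11.8 to 115) apart in cut-site CPM. Both windows thus separated the glutamatergic cortical-like from the GABAergic-like class. Window 7, chr6:126106501-126107000, was an astrocyte element in the same gene, with 11.9 cut-site CPM in sham and 11.9 in stroke astrocyte-like nuclei (42 and 63 cut sites), 0.569 and 0.489 in glutamatergic cortical-like and 0.624 and 0.273 in GABAergic-like nuclei. Its astrocyte-like level was 21.9-fold (13.7 to 36.5) the glutamatergic level. Over all kept nuclei the same window was 1.71-fold higher in stroke, where 581 of the kept nuclei were astrocyte-like against 416 in sham. Its most cut 200 bases, chr6:126106501-126106700 on the minus strand, hold 1 TTGGCA, found in 11.5% of stretches of the 6 windows.
Ntf3 window 7: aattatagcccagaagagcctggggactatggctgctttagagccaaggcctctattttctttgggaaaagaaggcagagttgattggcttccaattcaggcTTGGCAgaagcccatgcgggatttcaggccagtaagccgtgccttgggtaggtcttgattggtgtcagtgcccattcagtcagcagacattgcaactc

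Ntrk2, the TrkB gene, was open in every class and, of the broad classes, highest in astrocyte-like nuclei. Its level was 538 CPM in sham and 442 in stroke astrocyte-like nuclei, 424 and 344 in glutamatergic cortical-like, and 387 and 365 in GABAergic-like nuclei. The astrocyte-like level stood apart from both of these broad neuronal classes in each library, though not from every inhibitory lineage. Between the neuronal classes the order turned, with glutamatergic cortical-like above GABAergic-like nuclei in sham and below them in stroke, at 344 (334 to 355) against 365 CPM (354 to 376). Over both libraries OPC-like nuclei, the oligodendrocyte precursors, had 311 CPM, oligodendrocyte-like 201, myeloid-like 192 and vascular and leptomeningeal-like 127. Against all other gated nuclei the astrocyte-like level was 1.31-fold (1.27 to 1.35), and over the promoter alone 0.889-fold, so the direction of this order holds for the gene body and not for the promoter. Within GABAergic-like nuclei the Prox1 Adarb2 lineage had 490 CPM and the Lhx6 lineage 464, both above the striatal projection-like level of 350. In stroke the Lhx6 lineage had 481 CPM (453 to 511) and the Prox1 Adarb2 lineage 445 (403 to 490). Both intervals overlapped that of stroke astrocyte-like nuclei (424 to 460).

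The first start groups of Ntrk2 split by class. Start 1 had 28.6 cut-site CPM in sham and 29.1 in stroke GABAergic-like nuclei, 23.6 and 17.0 in glutamatergic cortical-like and 19.3 and 17.4 in astrocyte-like nuclei. Start 2 was led by glutamatergic cortical-like nuclei, with 31.5 in sham and 27.0 in stroke, and the astrocyte-like level was 0.486-fold of it. Start 4, at position 58808691 and used by transcripts Ntrk2-208 and Ntrk2-209, had the opposite order, with 12.2 in sham and 17.0 in stroke astrocyte-like nuclei and 5.16 and 3.91 in glutamatergic cortical-like nuclei, 3.16-fold (2.52 to 3.97) higher in the former.

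Inside the gene body, Ntrk2 window 1, chr13:59073501-59074000, was the most open 500 bp window of the gene, with 3385 cut sites, 34.9-fold the median window of the gene, outside exons and 202016 bp after the nearest start. It was shared by classes, with 33.2 cut-site CPM in sham glutamatergic cortical-like, 33.3 in sham GABAergic-like and 34.1 in sham astrocyte-like nuclei. Window 7, chr13:59041001-59041500, was astrocyte-led, with 30.7 in sham astrocyte-like against 7.22 in sham glutamatergic cortical-like and 9.59 in sham GABAergic-like nuclei. Window 8 of Ntrk2, chr13:58866001-58866500, was glutamatergic-led, at 14.9 in sham and 12.6 in stroke and 4.71-fold (3.79 to 5.91) the GABAergic-like level. The sequences of windows 1 and 7, chr13:59073697-59073896 and chr13:59041005-59041204, are given since both had fewer cut sites in the stroke library, as described further on. Neither holds one of the 5 motifs, and the second runs into a CT repeat.
Ntrk2 window 1: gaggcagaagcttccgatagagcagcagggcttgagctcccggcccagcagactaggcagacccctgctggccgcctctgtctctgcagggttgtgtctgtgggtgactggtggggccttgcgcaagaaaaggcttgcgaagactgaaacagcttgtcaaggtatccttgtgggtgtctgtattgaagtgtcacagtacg
Ntrk2 window 7: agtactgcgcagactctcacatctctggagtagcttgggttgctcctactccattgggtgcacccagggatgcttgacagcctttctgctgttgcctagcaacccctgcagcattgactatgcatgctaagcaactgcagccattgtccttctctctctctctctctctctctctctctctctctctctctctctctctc

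Ntrk3, the TrkC gene, was more open in both main neuronal classes than in astrocyte-like and oligodendrocyte-like nuclei. It had 409 CPM in sham and 357 in stroke glutamatergic cortical-like nuclei and 359 and 340 in GABAergic-like nuclei, against 205 and 222 in astrocyte-like and 186 and 211 in oligodendrocyte-like nuclei. The glutamatergic cortical-like and GABAergic-like levels stood apart in sham, while their intervals overlapped in stroke (347 to 368 and 329 to 351). OPC-like nuclei were near some of the inhibitory lineages. They had 322 CPM in sham and 275 in stroke, 0.867-fold the other gated nuclei over both libraries, against 301 and 296 in the Lhx6 lineage and 252 and 317 in the Prox1 Adarb2 lineage. Choroid and ependymal-like nuclei had 238 in sham and 430 in stroke, but 94 of the 157 sham nuclei were in the choroid cluster 24, whereas 22 of the 49 stroke nuclei were in cluster 3, which scored highest on the GABAergic markers. Striatal projection-like nuclei had 482 in sham and 422 in stroke, above upper layer-like nuclei with 445 and 323 and deep layer-like nuclei with 455 and 366. The striatal and deep layer intervals overlapped in sham (467 to 498 and 435 to 476). Dentate granule-like nuclei, also of the cortical class, had 522 (493 to 553) in sham and 420 in stroke. The astrocyte-like level was 0.607-fold that of all other gated nuclei, and 0.957-fold over the promoter alone.

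A pair of Ntrk3 starts of non-coding transcripts had opposite patterns, which is why the 200 bases before each are shown. Start 2, at position 78718220, had 13.5 cut-site CPM in sham and 8.31 in stroke glutamatergic cortical-like nuclei, and 0.597 in GABAergic-like and 0.796 in astrocyte-like nuclei over both libraries. It was 19.98-fold (12.7 to 33.5) more open in glutamatergic cortical-like than in GABAergic-like nuclei. Start 3, at position 78658109, had 12.2 in sham and 15.9 in stroke astrocyte-like nuclei against 0.347 in glutamatergic cortical-like nuclei over both libraries, a 41.6-fold difference (23.9 to 78.3). So a gene that was lower in astrocyte-like nuclei over its whole length held an element that was nearly closed in both main neuronal classes, where GABAergic-like nuclei had 0.911. The stretches are chr7:78718221-78718420, with TTGGCA 2 times, and chr7:78658110-78658309, with none of the motifs, both on the minus strand.
Ntrk3 start 2: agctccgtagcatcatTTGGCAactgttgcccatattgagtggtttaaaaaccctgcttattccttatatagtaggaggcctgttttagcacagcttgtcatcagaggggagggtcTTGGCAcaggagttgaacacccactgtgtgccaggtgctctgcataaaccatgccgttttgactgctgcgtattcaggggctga
Ntrk3 start 3: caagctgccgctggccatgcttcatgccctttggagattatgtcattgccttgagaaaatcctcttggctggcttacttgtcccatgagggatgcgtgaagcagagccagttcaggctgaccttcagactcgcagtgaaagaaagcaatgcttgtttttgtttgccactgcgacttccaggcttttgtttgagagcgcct

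Ntrk3 window 2, chr7:78397001-78397500, was a further glutamatergic element, with 14.3 cut-site CPM in sham and 14.4 in stroke glutamatergic cortical-like nuclei against 1.49 and 2.28 in GABAergic-like nuclei. The coding start 7, at positions 78578403 to 78578408, had 7.25 in sham and 4.402 in stroke glutamatergic cortical-like nuclei, 5.53 in GABAergic-like and 2.84 in astrocyte-like nuclei. OPC-like nuclei had 17.9 in sham, the highest of the broad classes there, and 4.39 in stroke, where it was not, from few nuclei (140 and 152) and 22 and 6 cut sites.

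Ngfr, the p75NTR gene, has a short window and the fewest fragments of the 6 genes, while per kb it lay near the median of all genes. It had 10.7 CPM in sham and 14.4 in stroke glutamatergic cortical-like nuclei, 17.4 and 15.4 in GABAergic-like, 15.1 and 17.2 in astrocyte-like, and 21.9 and 18.3 in OPC-like nuclei, and the intervals of neighbouring classes overlapped all along the order. Over both libraries the lowest level, 11.8 CPM (10.8 to 12.9) in glutamatergic cortical-like nuclei, stood apart from 16.7 (15.3 to 18.2) in GABAergic-like and 20.01 (14.9 to 26.2) in OPC-like nuclei. This order was that of sham, since in stroke the glutamatergic cortical-like level of 14.4 (12.4 to 16.7) overlapped the GABAergic-like 15.4 (13.2 to 17.9) and was 0.979-fold (0.815 to 1.17) the other gated nuclei. The highest level, 22.7 CPM in vascular and leptomeningeal-like nuclei, came from 13 sham and 15 stroke fragments, at 48.0 and 15.6 CPM, and a stricter gate put it at 0.888-fold the other nuclei in place of 1.57-fold. The Ngfr start had 3.79 cut-site CPM in glutamatergic cortical-like, 5.91 in GABAergic-like and 5.46 in astrocyte-like nuclei, with 12.7 in OPC-like nuclei. OPC-like nuclei had 13.8 in sham and 11.7 in stroke there.

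Sort1, the sortilin gene, was open in every class, with 145 CPM in sham and 129 in stroke glutamatergic cortical-like nuclei, 114 and 96.4 in GABAergic-like, and 91.5 and 98.5 in astrocyte-like nuclei. The glutamatergic cortical-like level of 140 CPM (136 to 143) stood apart from the GABAergic-like 108, and the lowest levels were 71.2 (61.3 to 82.2) in OPC-like and 72.9 (58.6 to 89.6) in vascular and leptomeningeal-like nuclei, which overlapped. Striatal projection-like nuclei had 150 in sham and 118 in stroke, at the level of the cortical class. Its main start was similarly open in all 3 large classes, with 24.4 cut-site CPM in glutamatergic cortical-like, 24.2 in GABAergic-like and 26.0 in astrocyte-like nuclei. The differences lay inside the gene. Window 3 of Sort1, chr3:108358501-108359000, which is exonic, had 18.9 in sham and 17.0 in stroke glutamatergic cortical-like nuclei, 4.3997 in GABAergic-like and 1.93 in astrocyte-like nuclei. Window 8, chr3:108288001-108288500, 4160 bp after the start, had 20.5 in sham and 15.7 in stroke astrocyte-like nuclei, 15.8 and 13.5 in oligodendrocyte-like, and 2.31 and 2.61 in glutamatergic cortical-like nuclei, 7.34-fold (5.66 to 9.56) lower than in astrocyte-like nuclei. This glial element of Sort1, chr3:108288002-108288201, and the most open intronic element of Ngfr, chr11:95586301-95586500 on the minus strand, which holds none of the motifs, are given below. The Sort1 stretch holds 1 CAGATG, found in 16.0% of stretches of the 6 windows.
Ngfr window 1: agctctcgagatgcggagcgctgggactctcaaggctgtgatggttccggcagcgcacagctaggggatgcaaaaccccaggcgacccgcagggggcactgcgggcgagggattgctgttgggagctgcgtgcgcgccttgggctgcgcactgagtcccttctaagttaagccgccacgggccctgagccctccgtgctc
Sort1 window 8: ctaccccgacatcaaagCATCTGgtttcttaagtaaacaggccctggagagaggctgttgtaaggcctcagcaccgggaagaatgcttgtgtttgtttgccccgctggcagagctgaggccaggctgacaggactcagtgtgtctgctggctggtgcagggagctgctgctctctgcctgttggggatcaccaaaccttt

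**Figure D2:**
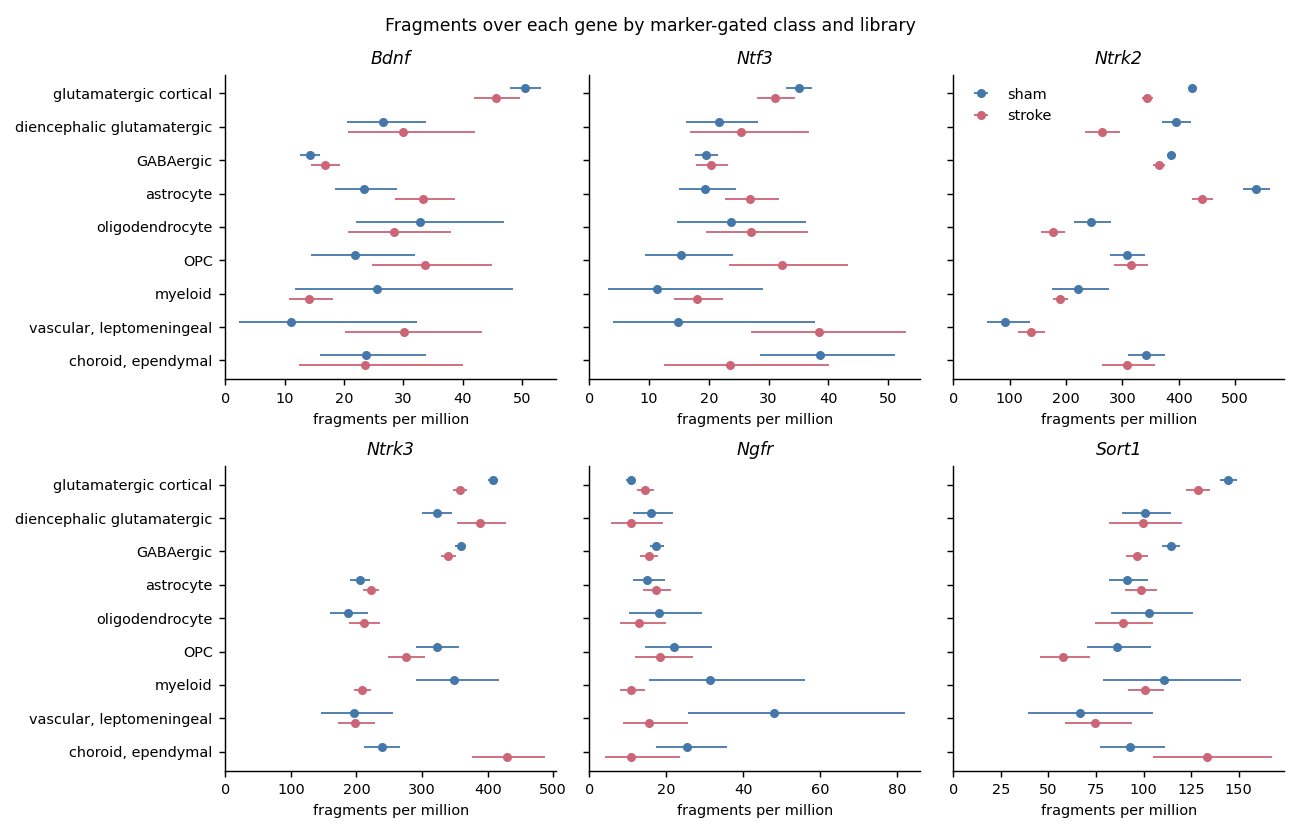
Accessibility of the 6 genes over gene body and 2 kb upstream, in CPM, in 9 marker-gated classes of the sham and stroke libraries, as points with exact 95% Poisson intervals. Bdnf is highest in glutamatergic cortical-like nuclei of both libraries (50.6 and 45.6), Ntrk2 in astrocyte-like nuclei (538 and 442), and the sham intervals are wide in the myeloid and vascular classes.

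Against all other gated nuclei, over both libraries, 16 of 54 pairs of gene and class were past 1.5-fold, and 6 of the 16 were so in each library on its own: Bdnf in the glutamatergic cortical and GABAergic classes, Ntrk2 in the oligodendrocyte, myeloid and vascular classes and Ntrk3 in the vascular class. The shares of all genes past 1.5-fold are given class by class below. No such share was computed for calls that hold in each library or for other gates, so those counts have no background. In glutamatergic cortical-like nuclei 2 of the 6 genes were higher (Bdnf and Ntf3), where 6.52% of 19594 genes were higher and 15.9% lower. In GABAergic-like nuclei the same 2 genes were lower, where 4.75% of genes were higher and 9.17% lower. Glutamatergic cortical-like nuclei make up most of the nuclei that this class was set against, so its calls are not independent of theirs. By library Ntf3 was at 1.73 in sham and 1.34 (1.18 to 1.52) in stroke glutamatergic cortical-like nuclei and at 0.616 and 0.732 in GABAergic-like nuclei, so both Ntf3 calls were lost in stroke. The glial and vascular calls were all lower except 1. Astrocyte-like nuclei had 1 gene lower (Ntrk3; 16.7% of genes higher, 20.9% lower), oligodendrocyte-like nuclei 2 (Ntrk2 and Ntrk3; 14.0% higher, 17.8% lower), and OPC-like nuclei 1 (Sort1 at 0.599, and at 0.869 with the markers at even positions; 11.5% higher, 13.2% lower). Myeloid-like nuclei had 4 lower (Bdnf, Ntf3, Ntrk2 and Ntrk3; 17.0% higher, 14.7% lower), with 270 of the 298 nuclei from stroke. In the 28 sham nuclei Ntrk3 was at 0.956 (0.794 to 1.14) and Bdnf at 0.766 (0.350 to 1.46). Vascular and leptomeningeal-like nuclei had 3 lower (Ntrk2, Ntrk3 and Sort1) and Ngfr higher (20% higher, 22.8% lower). No gene was past 1.5-fold in choroid and ependymal-like nuclei (10.8% higher, 12.9% lower) or diencephalic glutamatergic-like nuclei (7.80% higher, 9.37% lower). With classes set by each nucleus alone, without pooling neighbours, 2 of 54 pairs were past 1.5-fold, and these were Bdnf higher in the glutamatergic cortical class at 1.66 and lower in the GABAergic class at 0.427.

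**Figure D3:**
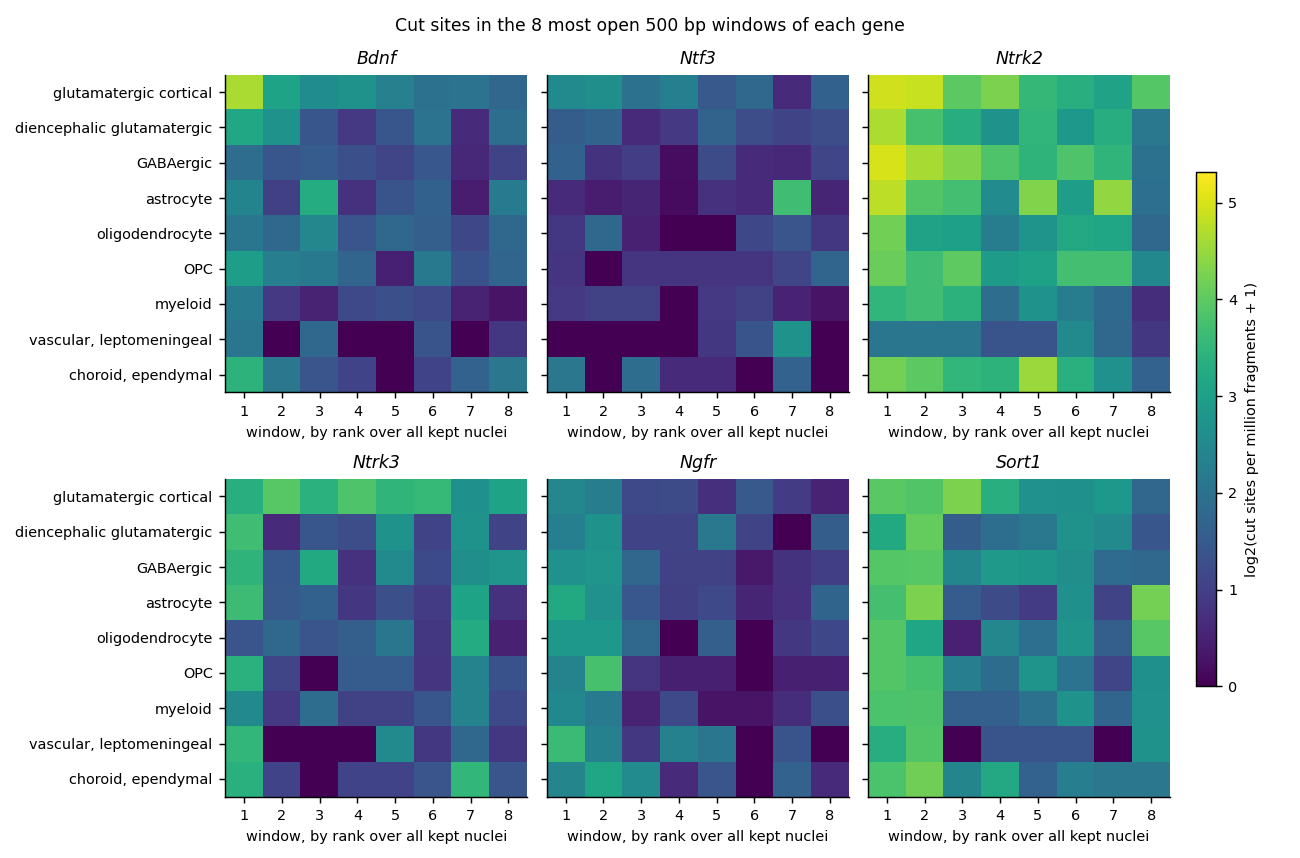
Heat maps of log2(cut-site CPM + 1) in the 8 most open 500 bp windows of each gene (columns, by rank over all kept nuclei) across 9 marker-gated classes (rows), both libraries together. Bdnf window 1 stands out in the glutamatergic cortical row, and Ntf3 window 7 and Ntrk2 window 7 in the astrocyte row. Sort1 window 8 is high in the astrocyte and oligodendrocyte rows, and Ntrk2 window 1 is bright across the neuronal and astrocyte rows.

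At the level of single windows, glutamatergic cortical-like nuclei were past 1.5-fold higher than GABAergic-like nuclei in 22 and lower in 3 of 46 windows compared, against 27.1% higher and 22.6% lower among all 500 bp windows of the genome with at least 50 cut sites. Astrocyte-like nuclei were higher than glutamatergic cortical-like nuclei in 7 and lower in 26 of 45 windows, against 19.5% and 57.7%. The windows are the 8 most open of each gene over all kept nuclei, of which the glutamatergic cortical-like and GABAergic-like classes are the largest.

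Stroke and sham were then set side by side over all kept nuclei. Ntrk2 had 404 CPM in sham and 326 in stroke, a ratio of 0.805 (0.790 to 0.821), the lowest of the 6. Ntrk3 had 360 and 307 (0.853, 0.837 to 0.870), Sort1 123 and 110 (0.889, 0.860 to 0.919), and Bdnf 35.7 and 32.2 (0.901, 0.848 to 0.959). The level of Ngfr was 14.4 in sham and 14.1 in stroke (0.981, 0.892 to 1.08) and that of Ntf3 26.6 and 27.6 (1.04, 0.967 to 1.11). Of the 6 genes 0 were past 1.5-fold, where 8.99% of 20037 genes were higher and 0.299% lower. The median log2 ratio was -0.16 over the 6 genes and -0.04 over all genes. These values mix classes in different shares, since glutamatergic cortical-like nuclei numbered 2094 in sham and 907 in stroke while myeloid-like nuclei were 28 and 270, and a ratio over all nuclei cannot tell a change in class shares from one within nuclei. With all called barcodes in place of kept ones, Ntrk2 was at 0.644. Of the 48 most open windows of the genes, 11 were past 1.5-fold lower in stroke over all kept nuclei and 1 higher, where 15.5% of windows were lower and 11.3% higher. The 48 windows were ranked on both libraries together, 73477848 sham and 52794287 stroke fragments, so the ranking leans toward windows open in sham. The shares are over all windows with at least 50 cut sites, not over top-ranked ones. Both limits also hold for the window counts within classes below.

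Within glutamatergic cortical-like nuclei the receptors and ligands were slightly lower in stroke, apart from Ngfr. Ntrk2 was at 0.812 (0.784 to 0.841), Ntrk3 at 0.874 (0.844 to 0.905), Sort1 at 0.889 (0.838 to 0.943), Bdnf at 0.903 (0.817 to 0.996) and Ntf3 at 0.887 (0.786 to 0.9995), against a gene median of -0.04 on the log2 scale. That median is a ratio of 0.972, which the intervals of Bdnf and Ntf3 cover. Ngfr was at 1.35 (1.11 to 1.63), from 301 sham and 177 stroke fragments, and at 0.813 with single-nucleus classes. None of the 6 was past 1.5-fold, where 3.46% of 18019 genes were higher and 1.27% lower. The nuclei of this class lay partly in different clusters, led by cluster 5 in sham (559 of 2094 nuclei) and cluster 18 in stroke (185 of 907), while cluster 1 held 366 and 154. The part of these clusters in the ratios was not tested. In GABAergic-like nuclei none was past 1.5-fold either (2.98% of genes higher, 1.44% lower), with Ntrk2 at 0.943 (0.908 to 0.979), Sort1 at 0.844 (0.784 to 0.907) and Bdnf at 1.18 (0.977 to 1.43).

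In neuronal subclasses some ratios lay further from 1. In deep layer-like nuclei Ntrk2 went from 455 CPM in sham to 310 in stroke (0.680, 0.617 to 0.749), with 0 genes called (5.64% of genes higher, 8.13% lower). Upper layer-like nuclei had 28.9 and 16.8 CPM of Ntf3, a ratio of 0.580 (0.379 to 0.862) that was the only call there (5.44% higher, 8.81% lower), and Ntrk3 at 0.727 (0.663 to 0.797). Of the upper layer-like nuclei, 199 of 395 in sham were in cluster 5, and 95 of 142 in stroke were in cluster 7 and 28 in cluster 18, and the part of this in the ratios was not tested. Deep layer-like nuclei, nearly all in cluster 1 in both libraries, had Ntf3 at 26.02 and 34.1 CPM (1.31, 0.937 to 1.81). In the Zic lineage Ntf3 had 37.8 and 23.6 CPM (0.625, 0.435 to 0.885) and Ngfr was at 0.551 (0.316 to 0.923), 2 lower calls (3.92% higher, 6.50% lower). In the Prox1 Adarb2 lineage Ntf3 had 16.2 and 28.3 CPM from 31 and 26 fragments, past 1.5-fold (6.16% higher, 12.3% lower) with an interval that covers 1 (1.74, 0.993 to 3.03). GABAergic-like nuclei outside the 4 subclasses had Ntf3 at 12.7 and 19.9 CPM (1.57, 1.06 to 2.32), the only call there (522 of 15065 genes higher, 773 lower). No gene was called in striatal projection-like (4.92% higher, 5.22% lower) or Lhx6 lineage nuclei (4.01% higher, 6.19% lower).

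**Figure D4:**
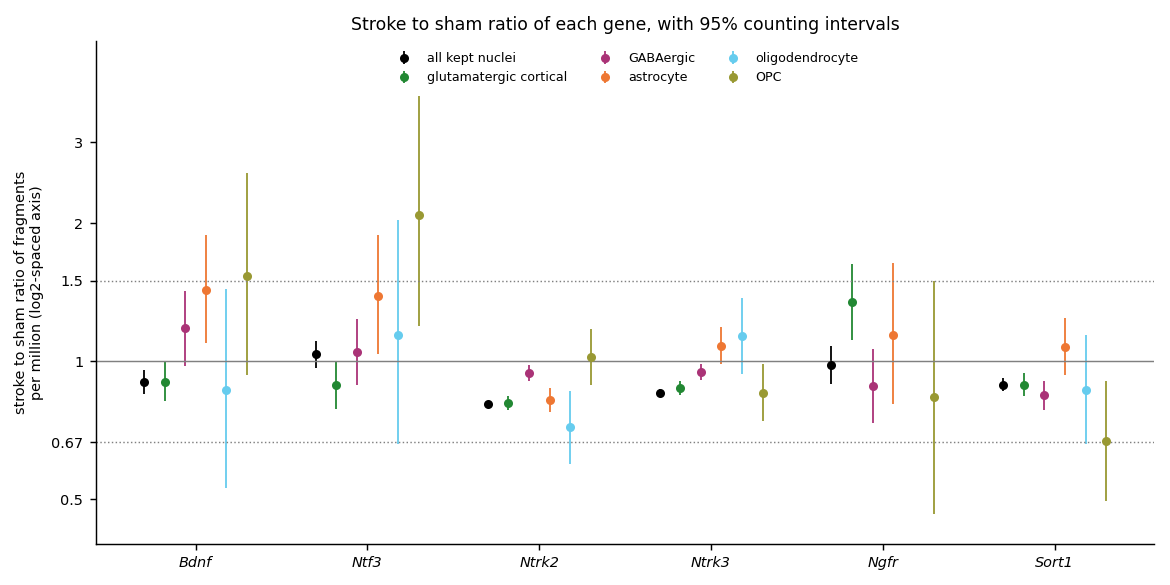
Stroke to sham ratio (log2-spaced axis) of the 6 genes over all kept nuclei and in 5 classes, with exact 95% conditional binomial intervals. Dotted lines mark 1.5 and its inverse. Ntrk2 sits below 1 in all kept, glutamatergic cortical, GABAergic, astrocyte and oligodendrocyte nuclei, and Bdnf and Ntf3 are above 1 in astrocyte and OPC nuclei with wide intervals.

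In astrocyte-like nuclei both ligand genes were higher in the stroke library. Bdnf had 23.3 CPM in sham and 33.3 in stroke (82 and 176 fragments), a ratio of 1.43 (1.09 to 1.88), and Ntf3 had 19.3 and 26.9 (68 and 142 fragments), a ratio of 1.39 (1.04 to 1.89). Ntrk2 was lower at 0.822 (0.773 to 0.874), Ntrk3 was at 1.08 (0.985 to 1.19), and none of the 6 genes was past 1.5-fold, where 6.90% of 15326 genes were higher and 5.32% lower. The astrocyte-like nuclei of the libraries lay in different clusters of a clustering from which the 6 genes and their 10 kb flanks had been left out. Cluster 16 held 225 of 416 sham and 99 of 581 stroke nuclei, cluster 22 held 138 and 80, and cluster 12 held 10 sham and 365 stroke nuclei.

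Ntrk2 and the ligand genes were also read by cluster. In cluster 16 Ntrk2 had 560 CPM in sham and 555 in stroke, a ratio of 0.992 (0.898 to 1.09), in cluster 22 it had 562 and 490 (0.871, 0.698 to 1.09), and in cluster 12 it had 460 and 415 (0.904, 0.734 to 1.12), the sham value from 10 nuclei. The interval covers 1 in each of the 3 clusters. Without cluster 12 the ratio of all astrocyte-like nuclei was 0.931 (0.855 to 1.01) in place of 0.822. Cluster 12 had the lowest Ntrk2 level of the 3 in both libraries. Its interval overlapped those of clusters 16 and 22 in sham and that of cluster 22 in stroke. The part of the clusters in the ratio was not tested. Bdnf had 21.9 and 31.9 CPM in cluster 16 (1.46, 0.917 to 2.29), 32.9 and 31.5 in cluster 22 (0.957, 0.356 to 2.47) and 38.7 and 33.9 in cluster 12 (0.876, 0.431 to 2.07). Ntf3 had 16.2 and 38.9 in cluster 16 (2.40, 1.51 to 3.79), 35.7 and 17.5 in cluster 22 (0.491, 0.137 to 1.47) and 19.4 and 24.5 in cluster 12 (1.27, 0.478 to 4.75). So a higher ligand level in stroke was clear of counting error for Ntf3 in cluster 16, while in the other clusters sham or stroke values rested on 13 fragments or fewer. In cluster 16 the receptor genes Sort1, at 1.45 (1.16 to 1.81), and Ngfr, at 1.82 (1.01 to 3.23), were above 1 as well. Ntrk3 was at 1.15 (0.971 to 1.36) there. No median or share over all genes was computed within clusters. A ligand difference in cluster 16 therefore cannot be told apart from a shift shared by many genes. Without cluster 12 the ratios of the class were 1.43 (0.977 to 2.07) for Bdnf and 1.68 (1.14 to 2.47) for Ntf3. This split by cluster was made after the values of the whole class had been seen.

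Of 14 windows compared in astrocyte-like nuclei, 1 was past 1.5-fold higher and 3 lower, where 16.5% of all windows were higher and 20.6% lower, so the share of lower windows was near that of the genome. Ntrk2 window 7, the astrocyte-led element shown above, had 30.7 cut-site CPM in sham and 14.8 in stroke (108 and 78 cut sites), a ratio of 0.481 (0.355 to 0.650), while glutamatergic cortical-like nuclei had 7.22 and 7.74 there. By cluster, window 7 had 30.1 and 27.9 in cluster 16 (0.926, 0.579 to 1.44), 60.3 and 6.997 in cluster 22 (0.116, 0.0132 to 0.472, from 22 and 2 cut sites) and 29.03 and 12.9 in cluster 12 (0.445, 0.190 to 1.27, from 6 and 48), and without cluster 12 its ratio was 0.622 (0.399 to 0.942). Ntrk2 window 1 had 34.1 and 21.8 (0.638, 0.490 to 0.831) in the whole class and 0.636 (0.411 to 0.959) without cluster 12. Its ratio was 0.819 (0.506 to 1.28) in cluster 16, 0.170 (0.0189 to 0.731) in cluster 22 from 15 and 2 cut sites, and 0.275 (0.162 to 0.494) in cluster 12 from 17 and 84. In clusters 16 and 22 together, without the astrocyte-like nuclei of any other cluster, the intervals covered 1 for window 7 (0.689, 0.442 to 1.04) and window 1 (0.662, 0.419 to 1.02). Ngfr window 1, whose sequence is given above, went the other way, with 5.12 in sham and 10.6 in stroke from 18 and 56 cut sites (2.07, 1.20 to 3.75). Within cluster 16 it had 14 and 22 cut sites, 5.27 and 21.9 cut-site CPM, within cluster 22 it had 2 and 1 cut sites, and without cluster 12 the ratio was 2.94 (1.54 to 5.71).

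Other glia had less depth. In oligodendrocyte-like nuclei Ntrk2 had 245 CPM in sham and 176 in stroke (0.718, 0.598 to 0.862), and 0 of 5 genes compared were called (6% higher, 11.4% lower). In OPC-like nuclei 2 of 6 genes were called higher, Bdnf at 1.54 (0.935 to 2.57) from 27 and 46 fragments and Ntf3 at 2.09 (1.19 to 3.79) from 19 and 44, where 5.48% of genes were higher and 10.3% lower. Gating on the markers at even positions of the lists gave 0.778 and 1.08 for these genes, so neither call held there. Sort1 was at 0.672 (0.496 to 0.908) in OPC-like nuclei.

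Single elements were also compared in neurons. Of 44 windows compared in glutamatergic cortical-like nuclei, 12 were past 1.5-fold lower in stroke and 0 higher, where 17.2% of windows were lower and 13.2% higher. In GABAergic-like nuclei 7 of 30 windows were lower and 2 higher (18.3% and 9.73%). Ntrk2 window 1 had 33.2 cut-site CPM in sham and 21.5 in stroke glutamatergic cortical-like nuclei (0.647, 0.563 to 0.743), and Ntrk3 window 8, chr7:78297501-78298000, had 9.42 and 2.93 (0.311, 0.213 to 0.442). Ntrk3 start 2, the glutamatergic start shown above, had a ratio of 0.615 (0.490 to 0.768), and the coding Ntrk3 start 7 one of 0.607 (0.441 to 0.823). By contrast Ntrk3 window 2 had 14.3 and 14.4 in the same nuclei, and Sort1 start 1 a ratio of 0.885, so the elements of 1 class did not share 1 ratio.

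Striatal projection-like nuclei, which carry Drd1, Drd2 and Ppp1r1b among their markers, had open windows in Ntrk2, Ntrk3 and Sort1 that were several-fold lower in the stroke library. Ntrk2 window 4, chr13:59074001-59074500, adjoining window 1, had 31.4 cut-site CPM in sham and 8.69 in stroke (245 and 26 cut sites), a ratio of 0.277 (0.177 to 0.416). Ntrk2 window 1 beside it had 51.2 and 42.8, a ratio of 0.835 (0.679 to 1.02), so adjoining elements differed. Ntrk3 window 8 had 17.0 and 5.35 (0.314, 0.174 to 0.529) from 133 and 16 cut sites, and Sort1 window 4, chr3:108307501-108308000, had 13.5 and 5.35 (0.398, 0.219 to 0.676). In GABAergic-like nuclei as a whole, of which the striatal projection-like nuclei are 769 of 2933, the 3 windows were at 0.468 (0.365 to 0.595), 0.395 (0.261 to 0.581) and 0.347 (0.228 to 0.510). Of 18 windows compared in striatal projection-like nuclei 7 were past 1.5-fold lower and 0 higher, where 26.0% of windows were lower and 8.65% higher. Over the whole genes, striatal projection-like nuclei had Ntrk2 at 355 and 337 CPM, Ntrk3 at 482 and 422 and Sort1 at 150 and 118. The median share of fragments in peaks was 38.6% in sham and 32.0% in stroke striatal projection-like nuclei and 43.8% and 37.0% in glutamatergic cortical-like nuclei, and its part in the lower windows was not tested.

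The wider pathway was read from 37 further genes in 6 roles, chosen with earlier results of these data known. Over all kept nuclei 2 of 37 were past 1.5-fold higher in stroke and 1 lower, with a median log2 ratio of -0.08, where 8.99% of all genes were higher and 0.299% lower. Mmp3, a matrix metalloproteinase that can cleave neurotrophin precursors, had 0.626 and 1.40 CPM (46 and 74 fragments), a ratio of 2.24 (1.53 to 3.31). Gab1, an adaptor downstream of receptor tyrosine kinases, had 41.6 and 67.8 (1.63, 1.55 to 1.71). In the main classes its ratio was lower, at 1.06 (0.946 to 1.18) in astrocyte-like, 1.26 (1.11 to 1.44) in glutamatergic cortical-like and 1.39 (1.24 to 1.57) in GABAergic-like nuclei, while in the Zic lineage it was 1.80 (1.33 to 2.44). Gab1 was also past 1.5-fold higher in deep layer-like and dentate granule-like nuclei. Of the classes left out of the comparison, it was called higher in the diencephalic and lower in the choroid class. Npas4, an activity-dependent transcription factor that acts on Bdnf promoters, had 29.5 and 16.9 CPM, a ratio of 0.571 (0.528 to 0.618).

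Npas4 was the lower gene in both neuronal classes as well. It had 33.3 CPM in sham and 20.9 in stroke glutamatergic cortical-like nuclei (0.629, 0.546 to 0.723), the only call among 36 pathway genes there (3.46% of all genes higher, 1.27% lower), with Rtn4r, the Nogo receptor and a p75NTR partner, at 86.2 and 69.3, and Slitrk5, a TrkB partner, at 27.7 and 33.6. In GABAergic-like nuclei 2 of 36 were lower and 0 higher (1.44% and 2.98% of all genes), Npas4 at 31.6 and 17.5 (0.554, 0.470 to 0.652) and Ntf5, the gene of the TrkB ligand NT-4/5, at 5.32 and 2.73 (0.514, 0.331 to 0.775). Gab1 was at 32.2 and 44.9 and Rtn4r at 31.7 and 23.8 in this class. The median log2 ratio over the list was -0.05 in glutamatergic cortical-like and -0.07 in GABAergic-like nuclei, near the medians of all genes.

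In astrocyte-like nuclei 1 of 34 pathway genes was past 1.5-fold higher and 0 lower, where 6.90% of all genes were higher and 5.32% lower, with a median log2 ratio of -0.07, the same as over all genes. Sorcs1, a sortilin-family receptor, was the gene past 1.5-fold, with 79.9 CPM in sham and 124 in stroke (1.55, 1.35 to 1.79). Plat, the tissue plasminogen activator gene, had 29.6 and 41.3 (1.40, 1.10 to 1.78), and Lingo1, a p75NTR co-receptor, had 213 and 143 (0.672, 0.607 to 0.745). Frs3, an adaptor of the Trk receptors, had 78.2 and 56.4 (0.722, 0.611 to 0.853). Among oligodendrocyte-like nuclei 2 of 25 genes were higher (Traf6 and Shc3) and 5 lower (Lingo1, Frs3, Slitrk5, Crtc1 and Egr1), where 6% of all genes were higher and 11.4% lower. In OPC-like nuclei 1 of 29 was higher (Maged1) and 2 were lower (Lingo1 and Arc), where 5.48% were higher and 10.3% lower. The named genes outside the neuronal and astrocyte classes are listed because the counts are small, after their values were seen.

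**Figure D5:**
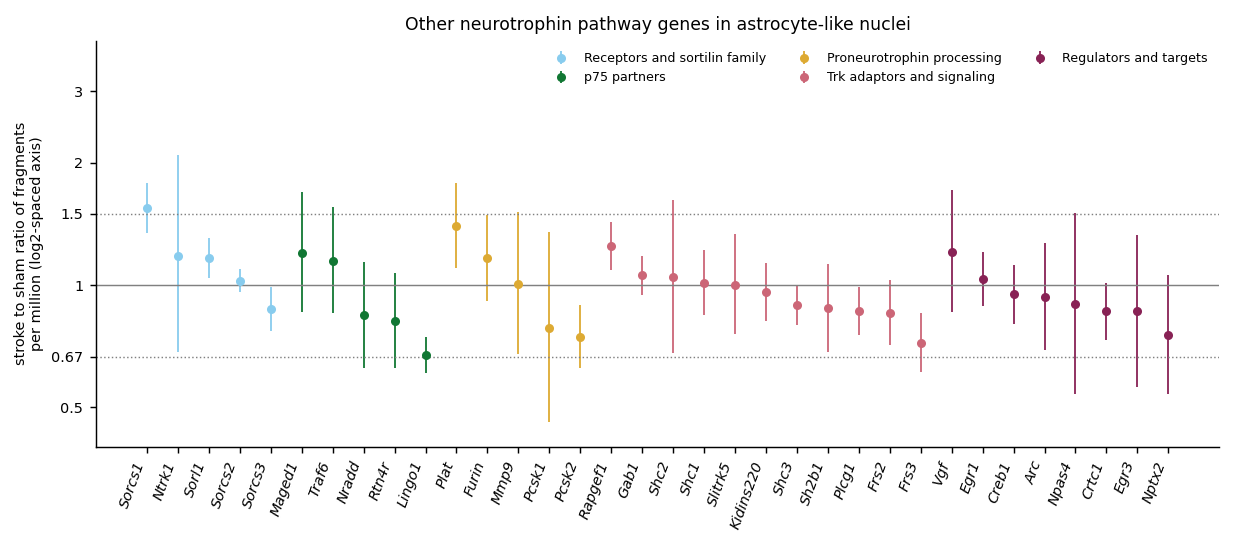
Stroke to sham ratio in astrocyte-like nuclei of the 34 pathway genes with at least 50 fragments, ordered by role, with exact 95% conditional binomial intervals. Sorcs1 at 1.55 is the gene past 1.5, and Lingo1 at 0.672 lies at the lower edge.

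The genes with the profile most like each member were found over 26 profiles of class and library, by Pearson's correlation of log2(CPM + 1), a description over profiles of separate nuclei that share libraries. Bdnf was followed most closely by Nrn1 (0.897), C1ql3 (0.861) and Pkp1 (0.846), and Ntf3 by P2rx3 (0.685), Slc26a4 (0.673) and Efnb1 (0.672). For the receptors these were Ppp2r2b (0.823), Aimp2 (0.811) and Trim9 (0.778) for Ntrk2, and Fndc9 (0.891), Lrrc7 (0.859) and Sfxn3 (0.855) for Ntrk3. Sort1 was followed by Gm19410 (0.927), Celf1 (0.860) and Pik3r6 (0.857), and Ngfr by Gfer (0.700), Cars (0.697) and Rnf157 (0.680). Between members the closest profiles were those of Ntrk3 and Sort1 (0.680) and of Bdnf and Ntf3 (0.662), while Bdnf and Ntrk2 were at -0.07.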

How the data were processed

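Nuclei were profiled by scATAC-seq in 1 sham and 1 stroke library. The authors aligned reads to mm10 with Cell Ranger ATAC 2.1.0, collapsed duplicates and deposited fragment lists with read counts per fragment and counts per barcode, without normalization. Depth was 76959104 sham and 96465679 stroke fragments. Neither the scRNA-seq data nor cell labels made by the authors entered this work.

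Fragments overlapping each gene body (GENCODE M21) and 2 kb upstream were counted with Python 3.11.15, NumPy 2.4.6 and SciPy 1.17.1 and divided by the total fragments of the class. Each nucleus was placed by the mean log2 marker level of itself and its 30 nearest nuclei on 5000 bp tiles, with a score of at least 0.25 and a margin of 0.1. This pooling was adopted after single-nucleus scores had been seen to mix classes. Of the kept nuclei 1112 sham and 986 stroke nuclei lay within 0.05 of the gate. Leiden clustering gave 27 clusters. Stroke was compared with sham in classes with at least 500000 fragments in each library whose leading cluster carried the class's name in both, which left out the diencephalic and choroid classes, as well as the myeloid and vascular ones. Doublets were not removed. Counting was tested on simulated data.

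The 6 genes, the marker lists and the pathway list were chosen with earlier results of these data known. Of the pathway list, 2 genes are not reported here. Of the others, the 4 with the largest absolute log2 stroke to sham ratio in each main class were named, and for each member the 3 genes of most similar profile.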

Additional observations from a re-analysis of the deposited data

Results flagged for a closer look

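Bdnf and Ntf3 drew attention because their stroke to sham ratios lay on opposite sides of 1 in astrocyte-like and glutamatergic cortical-like nuclei, with each interval apart from 1 before rounding. In the glutamatergic class this was narrow, with upper ends of 0.996 for Bdnf and 0.9995 for Ntf3. Bdnf was at 1.43 in astrocyte-like and 0.903 in glutamatergic cortical-like nuclei, and Ntf3 at 1.39 and 0.887. With 1 library per condition the difference between the classes was not tested. In astrocyte-like nuclei the 2 genes stayed above 1 under each alternative that gave a value. In glutamatergic cortical-like nuclei Bdnf stayed below 1, while Ntf3 was at 1.04 over the promoter only and at 1.03 with the single nucleus gate. The log2 ratio of Bdnf in this class was -0.147, and scaling to promoter fragments moved the median of all genes there by 0.143. Little of the distance of Bdnf from 1 was therefore left, but that scaling moves all genes of a class alike. The log2 distance of Bdnf from the gene median, -0.107, was unchanged by it. In astrocyte-like nuclei the same scaling moved the median by 0.173. The astrocyte-like nuclei of the libraries lay largely in different clusters, and without the leading stroke cluster the ratios were 1.43 and 1.68. In cluster 22 alone they were 0.957 and 0.491, and in cluster 12, the leading stroke cluster, 0.876 and 1.27, each from few fragments in at least 1 library.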

How the results depend on the processing

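No paired analysis was possible because there was a single library per condition, and no replicate could be left out for the same reason. Over all kept nuclei 0 of the 6 genes were past 1.5-fold, and 1 was with all called barcodes (Ntrk2). Of the pairs of gene and class, 16 were past 1.5-fold against other nuclei and 2 with the single nucleus gate, an alternative chosen after seeing the data. The share of all genes past 1.5-fold was not computed with that gate. Within classes 2 pairs were past 1.5-fold between stroke and sham, against 4 each with scaling to promoter fragments, the stricter gate, the markers at odd positions and, also chosen after seeing the data, without the leading stroke astrocyte cluster. Directions of calls reversed for Bdnf in OPC-like nuclei between stroke and sham with the markers at even positions (0.778), for Ntf3 over the promoter only in glutamatergic cortical-like (0.927) and GABAergic-like nuclei (1.06), for Ngfr in vascular and leptomeningeal-like nuclei with the stricter gate (0.888) and for Sort1 in that class with the single nucleus gate (1.02). In each of these the cause was not tested. The filter on peak fragments and counting cut sites moved 0 of 89 values beyond their counting interval, counting over the promoter alone moved 39 of 80 and the single nucleus gate 48 of 83. Scaling to promoter fragments moved the median log2 ratio of all genes by 0.12 over all kept nuclei, 0.14 in glutamatergic cortical-like and 0.17 in astrocyte-like nuclei, and taking all called barcodes moved it by -0.20 over all nuclei. Of the broad classes, depth was lowest in vascular and leptomeningeal-like nuclei, followed by choroid and ependymal-like, oligodendrocyte-like and OPC-like nuclei.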
